A study of Mus musculus with 25 samples.

Results

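The genes described here are the Hox genes of the 4 mouse clusters, taken as the 38 rows of the deposited count table whose mouse symbols are on a list of Hox genes, out of 35880 genes in all. They comprise 10 genes of the Hoxa cluster, 10 of Hoxb, 9 of Hoxc and 9 of Hoxd. They were measured by RNA-Seq in 25 pools of embryonic mesenchyme, the connective tissue that surrounds a developing gland, with 5 pools of each of 5 tissues, all from C57Bl/6JOlaHsd mouse embryos, with no allele or treatment named in the labels. At E13.5 the tissues were ventral skin mesenchyme (VM in the text, E13.5 VM in the plots), mammary mesenchyme (E13.5 MM) and salivary gland mesenchyme (SM, E13.5 SM in the plots). At E16.5 they were mammary mesenchyme (E16.5 MM) and the mammary fat pad precursor (FP, E16.5 FP in the plots). The mammary tissues came from the region of mammary rudiments 1 to 3, and the skin mesenchyme from ventral skin farther from the mammary region. Each pool held tissue of 2 to 3 embryos of a litter. Since 3 litters gave the 5 pools of a tissue, some pools shared a litter, and p-values here measure the spread between pools. The labels give the E16.5 pools as female and state no sex for those of E13.5. The Y-linked gene Ddx3y had 9910, 21249 and 12758 counts in total in VM, E13.5 MM and SM, against 2 in E16.5 MM and 0 in FP, so that stage and sex cannot be told apart. Per pool, Ddx3y had 1354 to 2715 counts in VM and 2149 to 6918 in E13.5 MM. In SM it had 0 to 4702, so the SM pools also differed among themselves in this gene.

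Hox genes encode homeodomain transcription factors that give cells their position along the head to tail axis of the body. Within a cluster, genes at the 3′ end are switched on early and far anteriorly, and genes toward the 5′ end later and more posteriorly, and genes at matching places in the 4 clusters form a paralog group. Skin and mammary mesenchyme belong to the trunk, where many Hox genes are active, whereas the jaw and the first pharyngeal arch, around which salivary glands form, are known for lacking them. Hoxa9, Hoxb9 and Hoxd9 are known for a shared role in growth of the mammary gland in pregnancy, and Hoxc8 for a role in placing the mammary buds.

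Levels are given as normalized counts, which are the authors' estimated counts scaled with TMM factors to the mean library size. Total counts per sample ran from 20678150 to 34448304. A gene was called higher or lower at an edgeR quasi-likelihood p adjusted over all 17657 genes tested under 0.05, a log2 fold change at or beyond 0.58 in either direction, and a mean above 50 normalized counts in the higher tissue. Each SE was derived from the log2 fold change and its F statistic, as their ratio after taking the root of F. Of the 38 Hox genes, 31 passed the filter on low counts and were tested. The other 7 were Hoxa13, Hoxb1, Hoxb13, Hoxc11, Hoxc12, Hoxc13 and Hoxd13, with at most 14.4 normalized counts as the mean of any tissue. In bulk tissue, fewer cells that express a gene and less RNA per cell cannot be told apart.

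The samples were checked against markers of their tissues. Summed over 8 mesenchyme markers, CPM ran from 13043 to 45764 over the 25 samples, and 8 epithelial markers summed to at most 108 CPM, with the highest values in E16.5 MM. The 5 salivary mesenchyme markers summed to 696 to 806 CPM in SM and to at most 118 CPM elsewhere. The 5 mammary mesenchyme markers summed to 518 to 1137 CPM in E16.5 MM, 331 to 448 in E13.5 MM and 297 to 363 in VM. In SM they summed to 127 to 182 CPM, above the 57.4 to 70.2 of FP. The E13.5 MM and VM ranges overlapped, so these markers did not separate those tissues. In FP the 5 adipocyte precursor markers summed to 653 to 1325 CPM and the 11 skeletal muscle markers to 2092 to 20266 CPM. FP replicate 5 stood apart, with 2092 CPM of muscle markers where the other pools had at least 11946, and the calls that rest on FP are also given without it. Ganglion neuron markers were highest in SM, at 327 to 419 CPM.

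The homeoboxes of paralog group 10 are shown first, because Hoxc10 and Hoxd10 are among the genes that differed most between the trunk tissues. The sequences show how alike the paralogs are within the homeobox, which is only part of the bases that were counted. The homeobox is the stretch that encodes the DNA-binding homeodomain. Each is 180 bases long and lies in the last exon of its gene. Coordinates are in GRCm38 with the GENCODE M21 annotation. They lie at chr6:52232554-52232733 (minus strand) for Hoxa10, chr15:102970848-102971027 (plus strand) for Hoxc10 and chr2:74694141-74694320 (plus strand) for Hoxd10. In the sequences, capitals mark the bases that differ from Hoxa10.
Hoxa10: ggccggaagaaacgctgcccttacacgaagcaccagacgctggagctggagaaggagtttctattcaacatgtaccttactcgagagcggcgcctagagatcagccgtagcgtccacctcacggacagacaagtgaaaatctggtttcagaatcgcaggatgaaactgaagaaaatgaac
Hoxc10: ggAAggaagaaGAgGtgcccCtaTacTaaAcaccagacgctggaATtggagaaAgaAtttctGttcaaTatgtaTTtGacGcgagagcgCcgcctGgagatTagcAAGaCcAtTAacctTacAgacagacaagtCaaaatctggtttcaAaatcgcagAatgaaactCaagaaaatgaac
Hoxd10: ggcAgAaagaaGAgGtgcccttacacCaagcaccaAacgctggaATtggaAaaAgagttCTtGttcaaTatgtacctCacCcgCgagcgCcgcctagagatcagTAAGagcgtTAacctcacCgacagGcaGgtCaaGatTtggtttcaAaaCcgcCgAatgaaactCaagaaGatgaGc

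Compared with Hoxa10, the homeobox of Hoxc10 differed at 35 bases and that of Hoxd10 at 38. The longest identical stretch within these homeoboxes was 16 bases, between Hoxc10 and Hoxd10. Over whole transcripts, 0.0359% of the 31-base words of Hoxa9, 0.782% of Hoxb9, 1.96% of Hoxc9, 1.33% of Hoxd9, 0% of Hoxa10 and 0% of Hoxd10 also occurred in another gene of the table. For Hoxc10 the share was 7.34%, mostly with Hoxc5, whose annotated span also covers Hoxc6, Hoxc8 and Hoxc9. Hoxd3 and Hoxd4 shared 61.1% and 49.1% of their words, mostly with Gm28230, a gene model that overlaps both, so their counts are uncertain. Hoxa2 and Hoxa3 shared 13.7% and 8.24%, mostly with Gm28308, and the other 33 genes shared at most 4.55%. Several members overlap antisense genes, among them Hoxa3, Hoxb3, Hoxb5, Hoxb6 and Hoxd3, and whether strand was used in the counting is not stated.

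The 4 trunk tissues expressed most Hox genes, and salivary gland mesenchyme nearly none. The number with a mean above 50 normalized counts was 24 in VM, 25 in E13.5 MM, 22 in E16.5 MM, 21 in FP and 0 in SM. At a mean above 10 the numbers were 29, 31, 26, 29 and 3. In every trunk tissue Hoxa10 was the most 5′ gene of its cluster above 50 and Hoxb9 that of Hoxb, whereas the 5′ limit differed in the other clusters. In Hoxc it was Hoxc10 in VM, Hoxc9 in both mammary mesenchymes and Hoxc8 in FP. In Hoxd it was Hoxd9 in VM and Hoxd11 in the other 3 trunk tissues. The heat map of all members by sample shows these limits.

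**Figure D1:**
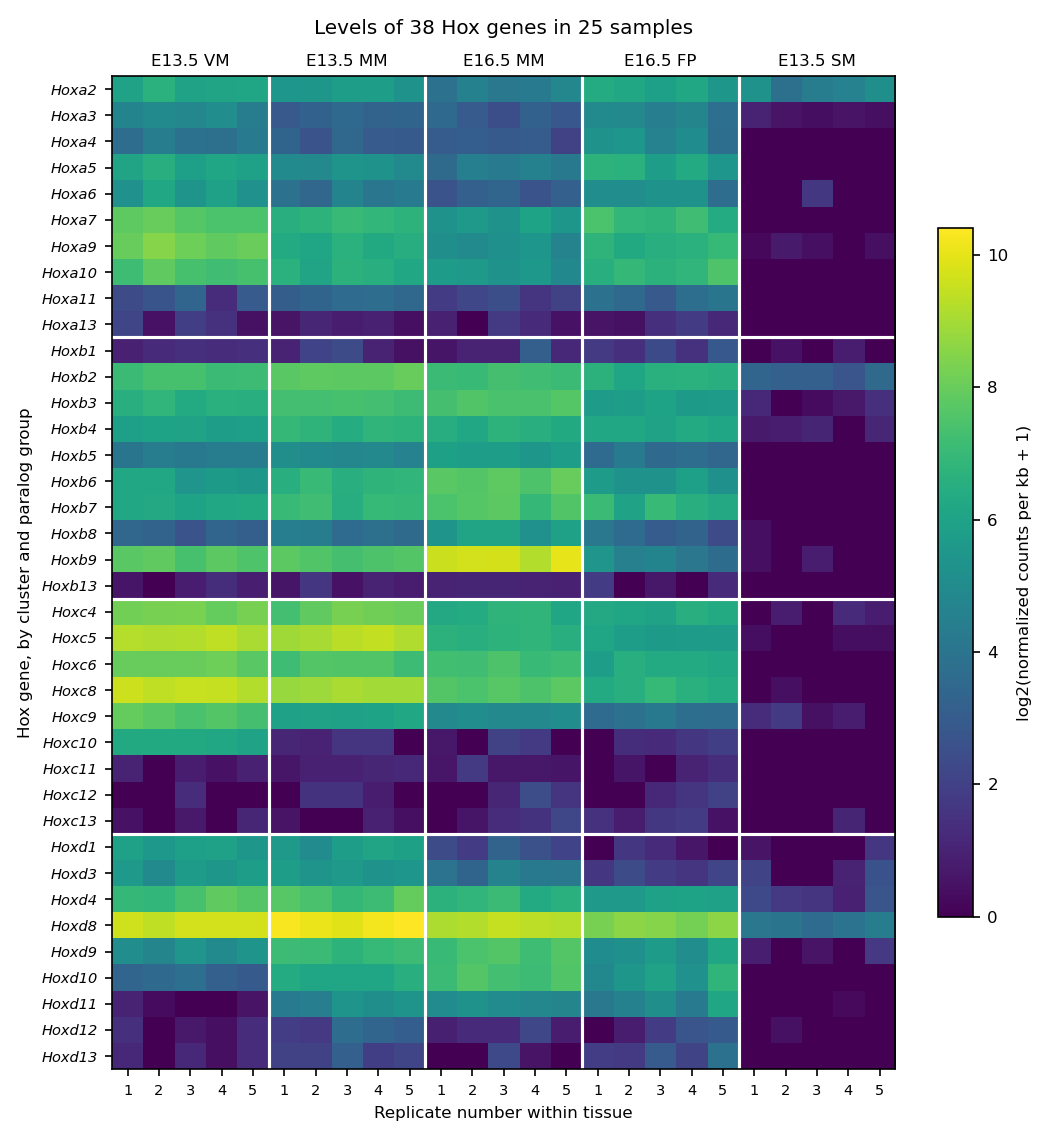
Each row is a Hox gene, ordered by cluster and paralog group, each column is a sample, and colour gives log2(normalized counts per kb of exon + 1). The 4 trunk tissues have most genes of groups 2 to 10 filled, SM is dark but for Hoxa2, Hoxb2 and Hoxd8, Hoxc10 is filled only in VM, and Hoxb9 is brightest in E16.5 MM.

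To compare levels between genes, normalized counts were divided by the length of each gene's exons in kb. On this per-kb scale the levels of all members summed to 4768 ± 181 in VM, 4600 ± 199 in E13.5 MM, 3593 ± 302 in E16.5 MM, 1875 ± 38.6 in FP and 61.7 ± 19.3 in SM (SD, n = 5 each). The lowest E16.5 MM sample, at 3248, lay above the highest FP sample, at 1925, and FP replicate 5 was that highest sample. Hoxd8, a mid-cluster gene, had the highest per-kb level in VM (789 ± 65.4), E13.5 MM (1170.4 ± 147) and FP (346 ± 40.3), and ranked after Hoxb9 in E16.5 MM (621 ± 60.4 against 810.4 ± 159). In VM its level was close to that of Hoxc8 (699 ± 74.3), whose highest sample exceeded the lowest of Hoxd8. With the longest transcript as the length the order turned in VM, to 822 ± 68.2 for Hoxd8 and 890.0 ± 94.7 for Hoxc8.

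The cluster with the largest mean share of the summed per-kb level was Hoxc in VM, Hoxd in E13.5 MM, Hoxb in E16.5 MM and Hoxa in FP. In VM the Hoxc cluster made up 44.2% ± 1.92 (SD, n = 5, as for the shares below), with 41.8 to 46.6% over samples. In E13.5 MM the Hoxd cluster made up 36.7% ± 3.87 and Hoxc 33.8% ± 3.81, and these ranges overlapped. With the longest transcript as the length their order turned, to 34.1% ± 3.84 for Hoxd and 35.5% ± 3.78 for Hoxc. In E16.5 MM the Hoxb cluster made up 47.8% ± 3.30, against 20.7% ± 1.69 in E13.5 MM and 13.9% ± 0.885 in VM, and the 3 ranges did not overlap. In FP the Hoxa cluster made up 31.5% ± 3.81, against 5.25% ± 0.993 in E16.5 MM, and Hoxd made up 29.2% ± 5.64, with overlapping ranges. The share of the 5′ groups 9 to 13 was 20.5% ± 1.86 in VM, 14.9% ± 0.733 in E13.5 MM, 35.8% ± 3.08 in E16.5 MM and 22.4% ± 5.81 in FP, where replicate 5 alone had 32.5% and the others 18.5 to 21.9%.

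**Figure D2:**
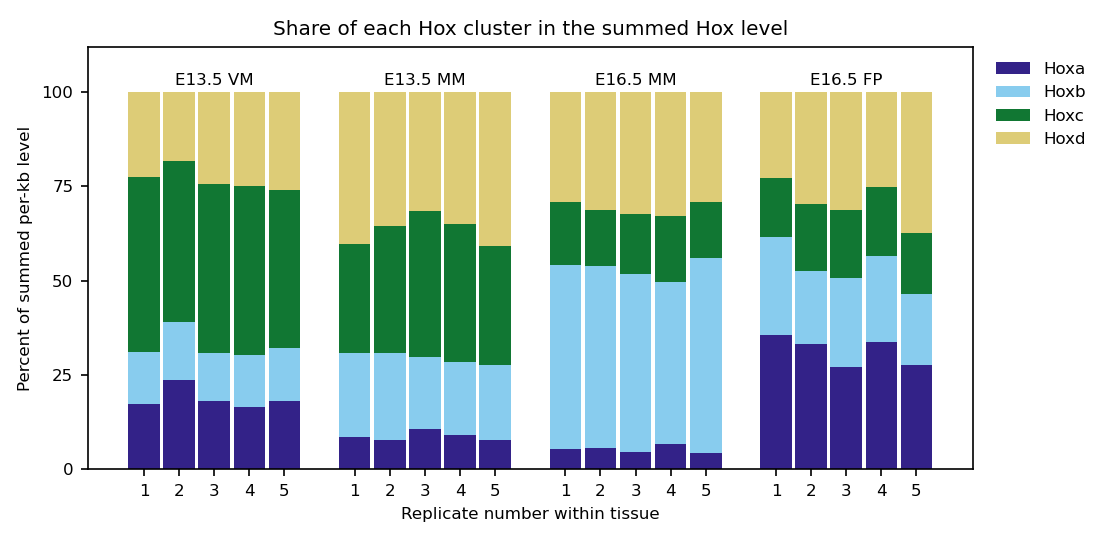
Stacked bars give the percent of the summed per-kb Hox level that each cluster supplied in each sample of the 4 trunk tissues. Hoxc is the largest part in all VM samples, Hoxb in all E16.5 MM samples, where Hoxa is at 4.18 to 6.73%, and Hoxa rises to 27.2 to 35.7% in FP.

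Salivary gland mesenchyme is the other glandular mesenchyme of the study. In SM, 16 members had 0 counts in all 5 libraries, 9 had 1 to 3 counts in total and 13 had 4 or more. Among the genes at 0 were Hoxa4, Hoxa5, Hoxa7, Hoxa10, Hoxb5, Hoxb6, Hoxb7, Hoxc6 and Hoxd10. For such a gene, 3 counts over the 5 libraries, or 0.564 normalized counts, is the level that a count of 0 allows, for counting error only. Only 5 members had a count in each of the 5 libraries, namely Hoxa2, Hoxa3, Hoxb2, Hoxd4 and Hoxd8.

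The 3 members with a mean above 10 in SM were Hoxa2, Hoxd8 and Hoxb2. Hoxa2, known as the selector gene of the second pharyngeal arch, had 68.1, 23.9, 35.6, 41.3 and 62.6 normalized counts in the 5 SM samples. Hoxd8 had 44.8, 41.2, 31.7, 39.5 and 55.6, and Hoxb2, an early hindbrain gene, had 33.2, 28.7, 27.9, 19.8 and 38.7. Hoxa2 was thus unlike the other 2 in its distance from the trunk tissues. Its mean was 46.3 ± 18.6 in SM and 35.3 ± 9.43 in E16.5 MM, where the ranges overlapped and no difference was called (log2 fold change of -0.39, SE 0.251, edgeR adjusted p = 0.175). It was higher in VM, E13.5 MM and FP than in SM, with log2 fold changes of 1.47, 0.86 and 1.35 (edgeR adjusted p = 1.09e-05, 0.00364 and 2.66e-05). Hoxd8 and Hoxb2 were higher in every trunk tissue, by log2 fold changes of 4.48 to 6.24 and 3.44 to 4.73.

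Of the 31 Hox genes tested, 24 were called higher in VM than in SM, where 14.7% of all genes were, 25 in E13.5 MM (14.5%), 22 in E16.5 MM (18.5%) and 21 in FP (20.2%). Without FP replicate 5, these 21 were kept and Hoxa4 was added. The filter on low counts asks for expression in no more samples than a tissue holds. Only 3 members had a mean above 10 in SM, so nearly all 31 were kept through the trunk tissues. Their share of higher calls is therefore not a test against that of all genes. None was called lower in any of these comparisons by edgeR or by DESeq2. A lower call needed a mean above 50 normalized counts in SM, which no member had, so the absence of lower calls is no result. The only tested member with a negative log2 fold change was Hoxa2 in E16.5 MM, at an unadjusted edgeR p of 0.137. The 4 comparisons share the SM samples, so their counts are not independent of each other.

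Folds against SM rest on few or no counts there, so that genes cannot be ranked by them. Hoxc8, with 1 count in the 5 SM libraries, had 2218, 1939, 2068, 2019 and 1649 normalized counts in VM and 1268, 1331, 1523, 1407 and 1402 in E13.5 MM. Ratios to SM were taken between summed estimated counts, each divided by the summed TMM-scaled library sizes of its tissue. That of Hoxc8 was 10520.2 in VM, with a 95% counting interval of 1888 to 415564. In E13.5 MM it was 7397, with an interval of 1327 to 292214. Both intervals are wide because a single count stands in the denominator. Hoxc6, with 0 counts in SM, had 607, 608, 598, 654 and 514 normalized counts in VM and was at least 1058-fold higher there, 734-fold in E13.5 MM, 647-fold in E16.5 MM and 328-fold in FP. Hoxa7, a gene of axial skeleton patterning, had 642, 717, 581, 504 and 495 normalized counts in VM and 502, 337, 313, 423 and 242 in FP. It was at least 1042-fold higher in VM, 561-fold in E13.5 MM and 644-fold in FP than in SM.

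Toward the 5′ end, Hoxa10, known for its role in the uterus, had 469.7, 760.3, 541, 483 and 541 normalized counts in VM and 305, 391, 337, 368 and 596 in FP, and 0 in SM. These are at least 991-fold and 708-fold higher. In E16.5 MM, Hoxb6 was at least 739-fold and Hoxd10 at least 524-fold higher than in SM. Hoxb9, with 3 counts in SM, had a ratio of 3726 (interval 1275 to 18073) there, and Hoxc8 one of 2961 (531 to 117005). Hoxc5, also with 3 counts, had a ratio of 3217 (1101 to 15603) in E13.5 MM. Hoxb7, with 0, had 209.8, 96.1, 203, 146 and 118 normalized counts in FP, at least 274-fold higher.

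Within the trunk at E13.5, the calls in mammary mesenchyme against ventral skin mesenchyme were upward in Hoxb and 5′ Hoxd and downward in Hoxa and 5′ Hoxc. Of the 31 genes tested, 9 were higher in E13.5 MM, where 3.79% of all genes were, and 7 were lower, where 2.66% of all genes were. The 9 were 6 of the 8 tested Hoxb genes (Hoxb2 to Hoxb7) and 3 Hoxd genes (Hoxd9, Hoxd10 and Hoxd11). The 7 were 5 of the 9 tested Hoxa genes and 2 of the 6 tested Hoxc genes, and no cluster had calls in both directions. The median log2 fold change was -1.01 for Hoxa, 0.72 for Hoxb, -0.52 for Hoxc and 1.23 for Hoxd, beside -0.01 over all genes tested. Because the skin pools were taken away from the mammary region, the tissue and its place on the body wall cannot be told apart in these differences.

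The Hoxd genes set the largest difference. Hoxd11, a 5′ gene known from limb patterning, had 4.3, 1.04, 0, 0 and 1.88 normalized counts in the 5 VM samples and 80.2, 87.0, 173, 150.2 and 171 in those of E13.5 MM. It was almost absent from skin mesenchyme, with 7 counts in all, and present in every mammary sample (log2 fold change of 6.52, SE 0.554, edgeR adjusted p = 3.36e-09). Its 3′ neighbour Hoxd10 had 17.2, 19.7, 23.5, 14.9 and 12.2 in VM and 150.2, 127, 129, 123 and 164 in E13.5 MM, again without overlap (log2 fold change of 2.97, SE 0.298, edgeR adjusted p = 2.22e-07). Hoxd9 had 72.0, 55.0, 88.6, 65.6 and 86.3 against 294, 289.6, 225, 263 and 299 (log2 fold change of 1.89, SE 0.247, edgeR adjusted p = 3.03e-06). The difference shrank from Hoxd11 to Hoxd8, where it was 0.57 on the log2 scale and just under the fold that a call needs, and the groups did not overlap at any of these genes. It was also smaller at Hoxd12, just 5′ of Hoxd11, with means of 2.10 in VM and 17.5 in E13.5 MM, too low for a call. Toward the 3′ end, Hoxd1, Hoxd3 and Hoxd4 differed by -0.05, -0.03 and 0.08.

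The Hoxc cluster went the other way at its 5′ end. Hoxc10 had 152, 150.4, 151, 140.0 and 118 normalized counts in VM and 2.26, 1.91, 3.9, 3.91 and 0 in E13.5 MM (log2 fold change of -5.81, SE 0.603, edgeR adjusted p = 3.59e-07). It was thus high in each skin sample and at or near 0 in each mammary sample. Hoxc9, known for patterning the thorax, had 587, 523, 416, 479 and 392 against 147, 152, 148, 157 and 179 (log2 fold change of -1.61, SE 0.191, edgeR adjusted p = 6.96e-07). Hoxc8 and Hoxc6 had log2 fold changes of -0.51 and -0.53, with adjusted p of 0.00115 and 0.00615 but a fold under that of a call, and Hoxc5 differed by -0.04.

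Among Hoxa genes, Hoxa9 had 1409, 2045, 1541, 1293 and 1448 normalized counts in VM and 457, 388, 545, 444 and 491 in E13.5 MM (log2 fold change of -1.73, SE 0.159, edgeR adjusted p = 1.19e-08). Hoxa3, known from the third arch and its derivatives, had 147, 183, 162, 198 and 123 against 38.4, 50.6, 64.3, 53.2 and 55.6 (log2 fold change of -1.63, SE 0.241, edgeR adjusted p = 1.89e-05). No E13.5 MM sample reached the lowest VM sample for either gene. Hoxa5, Hoxa7 and Hoxa10 were called lower, with log2 fold changes of -1.05, -0.89 and -0.98. Hoxa11, the most 5′ Hoxa gene tested, went the other way, with a log2 fold change of 0.86. Its means were 12.7 in VM and 23.3 in E13.5 MM, too low for a call, and the ranges overlapped. The Hoxb cluster had smaller differences, from 0.61 for Hoxb2 to 0.93 for Hoxb6 among the called genes. Hoxb6 had 143, 142, 81.5, 98.9 and 86.3 normalized counts in VM and 178, 252, 185, 211 and 224 in E13.5 MM (log2 fold change of 0.93, SE 0.174, edgeR adjusted p = 0.000541). At the 5′ end of that cluster, Hoxb9 was 522 ± 72.3 in VM and 483 ± 54.0 in E13.5 MM, with overlapping ranges.

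**Figure D3:**
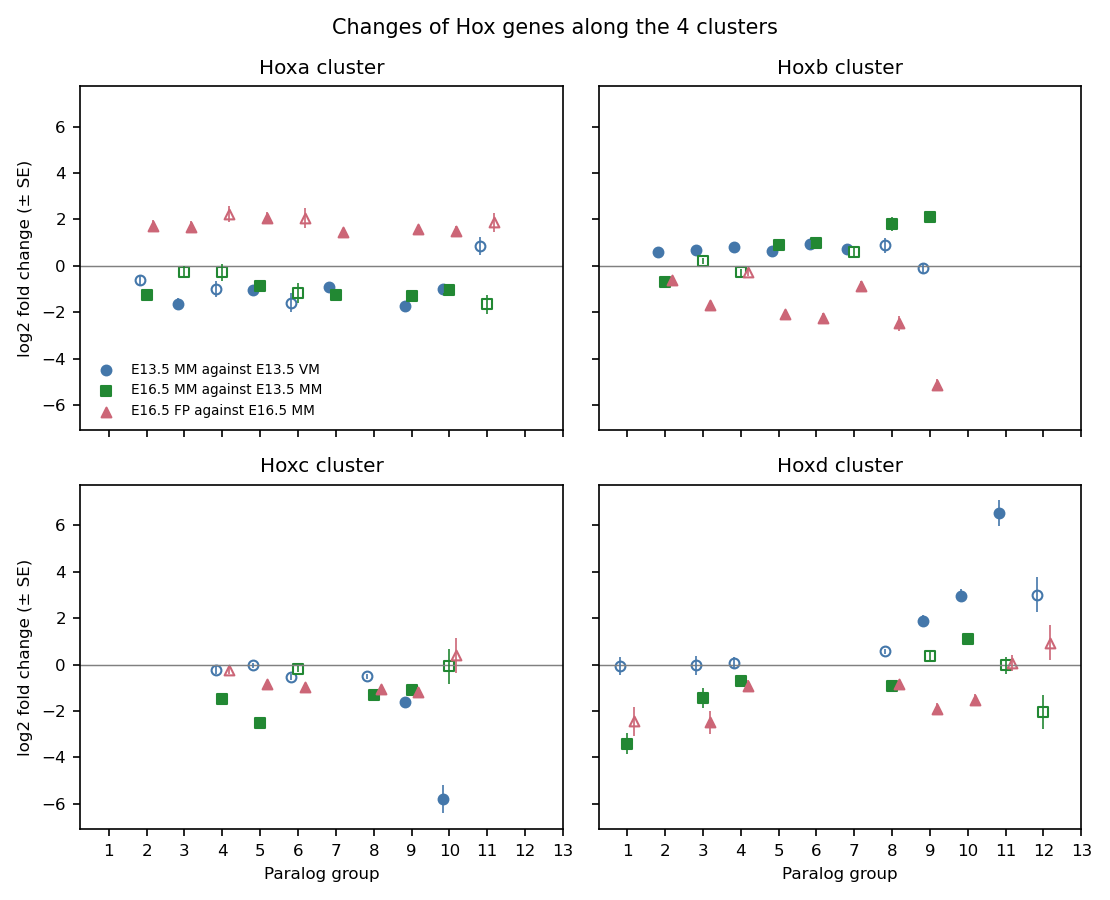
For each cluster, the log2 fold change of each tested gene is plotted against its paralog group for 3 comparisons, with bars of ± 1 SE and filled symbols for called genes. Hoxd11 and Hoxc10 lie farthest from 0 in E13.5 MM against VM, at 6.52 and -5.81, all Hoxa genes lie above 0 and all Hoxb genes below 0 in FP against E16.5 MM, and Hoxb9 is lowest there at -5.11.

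Between E13.5 and E16.5, the calls in mammary mesenchyme were downward in Hoxa and Hoxc and mostly upward in Hoxb. Of the 31 genes, 5 were higher in E16.5 MM, where 12.6% of all genes were, and 14 were lower, where 7.16% of all genes were. The higher genes were Hoxb5, Hoxb6, Hoxb8, Hoxb9 and Hoxd10. The lower genes were 5 of Hoxa, 4 of Hoxc, 4 of Hoxd and Hoxb2. The share higher was thus close to that of all genes, at 5 of 31 against 12.6%. Other markers also differed between the stages, with 780 to 3347 CPM of skeletal muscle markers at E16.5 against 122 to 437 at E13.5, 89.5 to 184 against 11.3 to 13.7 CPM of adipocyte precursor markers, and 309 to 359 against 124 to 153 CPM of leukocyte markers. Their part in the result was not tested.

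Hoxb9 had 557, 485, 410.3, 460.1 and 503 normalized counts in E13.5 MM, against 1958, 2115, 2187, 1518 and 2652 in E16.5 MM (log2 fold change of 2.11, SE 0.2, edgeR adjusted p = 7.21e-09). Every later sample was above every earlier one, and its mean at E16.5 was the highest count of any member, ahead of 1703 ± 166 for Hoxd8, whose range overlapped that of Hoxb9. Epithelial markers summed to 108, 27.0, 14.1, 50.6 and 79.5 CPM in the same 5 E16.5 MM samples, and their part in the result was not tested. Hoxb8 had 55.3, 53.5, 30.2, 35.2 and 29.1 against 108, 172, 177, 97.0 and 162 (log2 fold change of 1.82, SE 0.308, edgeR adjusted p = 2.8e-05), and Hoxb6 had 178, 252, 185, 211 and 224 against 418, 382, 437, 355 and 492 (log2 fold change of 0.99, SE 0.171, edgeR adjusted p = 6.52e-05). Along the cluster the log2 fold changes ran from -0.68 for Hoxb2 through 0.20, -0.27, 0.92, 0.99, 0.58 and 1.82 for Hoxb3 to Hoxb8, to 2.11 for Hoxb9, without a test of a trend. Hoxb7 lay at the fold that a call needs and was called with DESeq2. Outside Hoxb, Hoxd10 had 150.2, 127, 129, 123 and 164 against 244, 349.7, 283, 255 and 344 (log2 fold change of 1.09, SE 0.261, edgeR adjusted p = 0.00161).

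The largest fall was at the 3′ end of Hoxd. Hoxd1, known from sensory neurons, had 90.3, 59.3, 101, 123 and 110.3 normalized counts in E13.5 MM, against 8.02, 4.79, 16.8, 9.24 and 6.04 in E16.5 MM (log2 fold change of -3.42, SE 0.453, edgeR adjusted p = 9.87e-07). Hoxd3 had 230.4, 172, 196, 167 and 181 against 61.9, 38.3, 99.7, 73.9 and 71.4 (log2 fold change of -1.45, SE 0.424, edgeR adjusted p = 0.00661), with counts that are uncertain for the overlap given above. In Hoxc, Hoxc5 had 1495, 1621, 1949, 2143 and 1748 against 316, 285, 319, 342 and 292 (log2 fold change of -2.53, SE 0.11, edgeR adjusted p = 6.01e-15), and its groups were far apart. Hoxc4 had 397, 586, 795, 732 and 658 against 197, 216, 274, 282 and 178 (log2 fold change of -1.47, SE 0.184, edgeR adjusted p = 4.5e-07). Both genes lie at the 3′ end of their cluster, whereas Hoxc6, just 5′ of Hoxc5, differed by -0.18 with overlapping ranges. Hoxc8 and Hoxc9 were called lower, with changes of -1.32 and -1.08 on the log2 scale. The 5 Hoxa genes that were lower, Hoxa2, Hoxa5, Hoxa7, Hoxa9 and Hoxa10, changed by -1.31 to -0.86.

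At E16.5 the fat pad precursor differed from mammary mesenchyme upward in the calls of Hoxa and downward in those of the other clusters. Of the 31 genes, 6 were higher in FP, where 6.78% of all genes were, and 16 were lower, where 7.34% of all genes were. All 6 higher genes belonged to Hoxa, of which 9 were tested, and the other 3 tested Hoxa genes (Hoxa4, Hoxa6 and Hoxa11) had log2 fold changes of 2.24, 2.07 and 1.88 with adjusted p under the threshold but means under 50. The lower genes were 7 of 8 tested in Hoxb, 4 of 6 in Hoxc and 5 of 8 in Hoxd. The median log2 fold change was 1.73 for Hoxa, -1.89 for Hoxb, -0.92 for Hoxc and -1.21 for Hoxd, beside 0.00 over all genes tested. Without FP replicate 5, all 22 calls were kept and Hoxa4 was added to the higher genes. Skeletal muscle markers were higher in every FP pool but replicate 5 than in any E16.5 MM pool, and their part in these differences in the other 4 pools was not tested.

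Hoxa5, known for its role in the lung, had 20.6, 40.7, 36.0, 42.7 and 33.2 normalized counts in the E16.5 MM pools, against 196, 185, 106, 153 and 81.3 in FP (log2 fold change of 2.06, SE 0.247, edgeR adjusted p = 1.02e-06). Hoxa2 had 24.1, 40.7, 30.0, 33.5 and 48.3 against 148, 129, 101, 134 and 79.2 (log2 fold change of 1.73, SE 0.25, edgeR adjusted p = 4.98e-06), and Hoxa3 had 64.2, 41.9, 27.6, 49.7 and 36.2 against 176, 171, 123, 153 and 77.1 (log2 fold change of 1.67, SE 0.246, edgeR adjusted p = 6.52e-06). All 3 were above the mammary samples in each fat pad pool and lowest in replicate 5. Hoxa9 had 199, 169, 201, 239 and 133 against 597, 439.9, 519, 548 and 697 (log2 fold change of 1.57, SE 0.164, edgeR adjusted p = 3.33e-08), with replicate 5 the highest. The 9 tested Hoxa genes lay within 1.44 and 2.24 on the log2 scale, a narrow span beside that of Hoxb, from -5.11 to -0.28.

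Hoxb9 differed most, with 108, 57.5, 64.4, 42.4 and 30.6 normalized counts in FP against 1958, 2115, 2187, 1518 and 2652 in E16.5 MM (log2 fold change of -5.11, SE 0.239, edgeR adjusted p = 3.65e-14). Its fat pad values were lowest in replicate 5 and highest in replicate 1 and stayed far under those of mammary mesenchyme, and under those of E13.5 MM and VM as well. Hoxb8 had 44.4, 29.7, 18.8, 23.8 and 11.6 in FP (log2 fold change of -2.47, SE 0.32, edgeR adjusted p = 1.01e-06), and Hoxb6 had 103, 78.3, 76.5, 114 and 71.8 (log2 fold change of -2.23, SE 0.18, edgeR adjusted p = 2.92e-09). Neither overlapped the E16.5 MM values given above. Hoxd3 had 8.88, 17.8, 10.7, 8.28 and 14.8 in FP (log2 fold change of -2.49, SE 0.492, edgeR adjusted p = 0.000285), again with uncertain counts. Among the 5′ Hoxd genes, Hoxd9 and Hoxd10 were called lower, with log2 fold changes of -1.92 and -1.52, and Hoxd11 had 71.0, 97.1, 150.2, 75.6 and 284 against 132, 160.5, 131, 116 and 107 and a log2 fold change of 0.07 (edgeR adjusted p = 0.919), with overlapping ranges. Without replicate 5, that of Hoxd11 was -0.40 (edgeR adjusted p = 0.41).

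FP replicate 5 was ordered differently from the other pools along the clusters. Of the 29 members with a mean above 10 in FP, it was the highest of the 5 pools for 8 and the lowest for 10. The 8 were Hoxa9, Hoxa10, Hoxa11, Hoxd8, Hoxd9, Hoxd10, Hoxd11 and Hoxd13, all in groups 8 to 13. Hoxd13, a gene of digits and genitalia, had 6.66, 5.94, 17.4, 8.28 and 33.8 normalized counts, and Hoxd10 had 51.1, 81.2, 113, 68.3 and 202. The 10 for which it was lowest were 6 Hoxa genes, Hoxa2 to Hoxa7, and 4 Hoxb genes. These pools were compared after their values were seen, and no test was made.

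The clusters contributed to paralog groups 9 and 10 in different proportions among the trunk tissues. Hoxa9 had the largest mean share of group 9 in VM and FP and Hoxb9 in both mammary mesenchymes, and Hoxa10 had the largest mean share of group 10 in every trunk tissue but E16.5 MM, where Hoxd10 did. In E13.5 MM the per-kb levels of Hoxa10 and Hoxd10 overlapped, at 65.5 to 101.6 and 67.6 to 90.4. As a share of the per-kb level of group 9, Hoxa9 was 38.9% ± 4.51 in VM, 18.1% ± 2.98 in E13.5 MM, 3.41% ± 1.28 in E16.5 MM and 55.2% ± 4.40 in FP. Hoxb9 was 28.5% ± 2.59, 40.4% ± 2.23, 77.5% ± 2.76 and 13.1% ± 6.00 in the same order. Hoxc9 was 27.7% ± 3.15, 13.9% ± 1.06, 2.98% ± 0.429 and 7.57% ± 1.79, and Hoxd9 was 4.95% ± 1.38, 27.6% ± 1.75, 16.1% ± 1.81 and 24.1% ± 5.82. In group 10 the share of Hoxa10 was 66.7% ± 4.51, 52.4% ± 5.87, 20.9% ± 5.59 and 69.2% ± 7.09, and that of Hoxd10 was 3.78% ± 0.819, 46.8% ± 6.32, 78.4% ± 5.84 and 29.9% ± 6.96. Hoxc10 supplied 29.6% ± 4.01 of group 10 in VM and at most 1.59% in any sample of the other 3 trunk tissues. With the longest transcript in place of all exons as the length, the level of Hoxa9 was higher, at 479.6 per kb against 277 in VM, because its exons span more bases than its longest transcript. Its share of group 9 was then 52.0% ± 4.77 in VM, 27.5% ± 3.94 in E13.5 MM, 5.73% ± 2.10 in E16.5 MM and 67.9% ± 3.87 in FP, and the genes with the largest mean shares were as above.

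**Figure D4:**
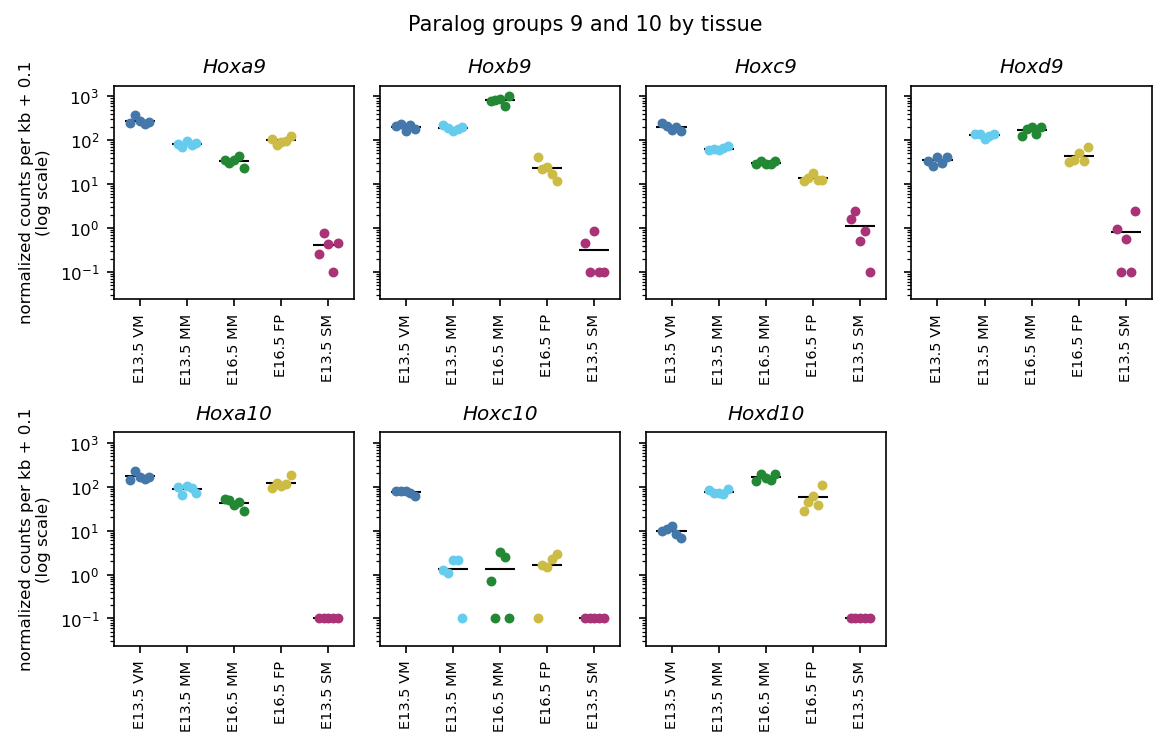
Points are single samples and lines are means of 5, with normalized counts per kb + 0.1 on a log axis. Hoxb9 is highest in E16.5 MM and low in FP, Hoxa9 and Hoxa10 are lowest of the trunk tissues in E16.5 MM, Hoxc10 is high only in VM, and Hoxd10 is lowest of the trunk tissues in VM.

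Over the 20 trunk samples, neighbours in a cluster varied together more closely than paralogs did. The 27 members with a mean above 50 in at least a single trunk tissue were correlated on log2(normalized counts + 1), as a description over samples that share tissues and libraries. Neighbours were genes next to each other among these 27, so that Hoxa3 with Hoxa5 and Hoxa5 with Hoxa7 were included. Pearson's r had a median of 0.875 over 23 pairs of neighbours, with a range of 0.412 to 0.963, and 0.666 over 56 other pairs within a cluster. The neighbours Hoxd3 and Hoxd4, at 0.894, have uncertain counts for the overlap given above. It had a median of 0.005 over 24 pairs of the same paralog group in different clusters, with a range of -0.845 to 0.844, and 0.042 over the 248 other pairs. Within clusters the median was 0.82 for Hoxa, 0.881 for Hoxc and 0.637 for Hoxb, where all pairs were positive. Hoxd was split, with a median of 0.254 and 13 of 21 pairs positive, and its 3′ genes (Hoxd1, Hoxd3 and Hoxd4) and 5′ genes (Hoxd9, Hoxd10 and Hoxd11) differed in the comparisons above.

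Partners and regulators of Hox proteins were taken from lists. TALE homeodomain proteins such as Meis and Pknox bind DNA together with Hox proteins. Of 9 such genes tested, 1 was higher and 2 were lower in E13.5 MM than in VM, 2 were higher and 1 lower in mammary mesenchyme at E16.5 than at E13.5, and 1 was higher and 4 lower in FP than in E16.5 MM. Of all genes, 3.79% were higher and 2.66% lower in the first of these comparisons, 12.6% and 7.16% in the next, and 6.78% and 7.34% in the last. Meis2 had 1439 ± 368 normalized counts in FP against 4230.2 ± 548 in E16.5 MM (log2 fold change of -1.56, edgeR adjusted p = 7.84e-10), and Meis1 had 1431 ± 177 normalized counts in FP against 3846 ± 488 in E16.5 MM (log2 fold change of -1.43, edgeR adjusted p = 2.29e-11). Against SM the calls went both ways. Meis1 was called higher in VM, E13.5 MM and E16.5 MM. Meis3 was called lower in all 4 trunk tissues, with log2 fold changes from -1.322 to -0.645. Of the 9 genes, 1 or 2 were higher per trunk tissue, beside 14.5 to 20.2% of all genes. The number lower was 2 for each tissue except FP, where it reached 5, beside 15.6 to 19.3% of all genes.

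Genes of Polycomb and Trithorax type, which keep Hox clusters silent or active, were tested as a list of 20. In E13.5 MM against VM 0 were higher and 1 was lower, beside 3.79% and 2.66% of all genes. In mammary mesenchyme at E16.5 against E13.5, 3 were higher and 2 lower, beside 12.6% and 7.16%, and in FP against E16.5 MM 0 were higher and 2 lower, beside 6.78% and 7.34%. Against SM, 8 to 10 of the 20 were lower in each trunk tissue and at most 1 was higher, beside 15.6 to 19.3% and 14.5 to 20.2% of all genes. Jarid2, a partner of the Polycomb complex PRC2, was lower in each, and had 1426 ± 176 normalized counts in E16.5 MM against 6269 ± 949.7 in SM (log2 fold change of -2.14, edgeR adjusted p = 4.86e-15). The lower genes were not only of Polycomb type. Kmt2a, of Trithorax type, was lower in VM, E13.5 MM, E16.5 MM and FP, with log2 fold changes of -1.19, -1.45, -0.835 and -1.31. Kdm6b was lower in the same tissues, by -1.495, -1.85, -1.155 and -1.55. Bmi1, a PRC1 component, was the gene that was higher, in VM, E13.5 MM and E16.5 MM, and had 2707 ± 185 normalized counts in E13.5 MM against 1464 ± 149 in SM (log2 fold change of 0.89, edgeR adjusted p = 1.82e-09).

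Of 14 upstream signals and regulators, such as retinoic acid enzymes and receptors, 10 were tested, and 2 were higher and 1 was lower in E13.5 MM than in VM, 3 higher and 3 lower in mammary mesenchyme at E16.5 than at E13.5, and 1 higher and 3 lower in FP than in E16.5 MM, beside the shares of all genes given for the TALE genes. Aldh1a2, which makes retinoic acid, had 230.3 ± 66.6 normalized counts in FP against 15.8 ± 4.58 in E16.5 MM (log2 fold change of 3.87, edgeR adjusted p = 1.83e-12). Cyp26b1, which degrades it, had 15.4 ± 6.54 normalized counts in FP against 189 ± 82.1 in E16.5 MM (log2 fold change of -3.59, edgeR adjusted p = 2.32e-08). Of the 10, 5 to 7 were lower in each trunk tissue than in SM and 1 or 2 were higher, beside 15.6 to 19.3% and 14.5 to 20.2% of all genes. Aldh1a2 had 14.1 ± 3.91 normalized counts in VM against 2303 ± 266 in SM (log2 fold change of -7.35, edgeR adjusted p = 2.52e-18), and the retinoic acid receptor gene Rarb had 279.7 ± 69.6 normalized counts in VM against 4203 ± 242 in SM (log2 fold change of -3.91, edgeR adjusted p = 5.69e-18). Aldh1a2, Rarb and Cyp26b1 were each called lower in all 4 trunk tissues and were thus most abundant in the tissue with the fewest Hox transcripts.

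Among 12 homeobox genes of the first arch and jaw, which lie outside the Hox clusters, 10 were lower in VM than in SM, 10 in E13.5 MM, 9 in E16.5 MM and 8 in FP, beside 15.6, 15.6, 16.6 and 19.3% of all genes. From 0 to 2 were higher, beside 14.5 to 20.2%, namely Msx1 in VM and E16.5 MM and Lhx6 in E16.5 MM. Barx1, a gene of jaw and stomach mesenchyme, had 5.45 ± 3.14 normalized counts in VM against 2526 ± 252 in SM (log2 fold change of -8.80, edgeR adjusted p = 2.55e-19). Pitx1, a gene of hindlimb and jaw identity, had 474 ± 148 normalized counts in VM against 4025 ± 710.2 in SM (log2 fold change of -3.09, edgeR adjusted p = 2.5e-13) and 22.8 ± 4.46 normalized counts in E13.5 MM against 474 ± 148 in VM (log2 fold change of -4.36, edgeR adjusted p = 1.38e-12). Within the trunk 1 was higher and 3 were lower in E13.5 MM than in VM, beside 3.79% and 2.66% of all genes. In mammary mesenchyme at E16.5 against E13.5, 2 were higher and 1 was lower, beside 12.6% and 7.16%. In FP against E16.5 MM 1 was higher and 3 were lower, beside 6.78% and 7.34%.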

How the data were processed

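Mesenchyme of 5 embryonic mouse tissues, 5 pools each, was profiled by RNA-Seq. The authors trimmed reads with Trimmomatic 0.39 and quantified them with Salmon 0.99.0 against mm10, and the deposited values are estimated counts. The annotation release and the use of strand are not given in the sources used here. Estimated counts were rounded, filtered with filterByExpr, scaled with TMM factors and fitted in edgeR 4.0.16 (R 4.3.3) with all 25 samples and no covariate, and p-values were adjusted by Benjamini-Hochberg. The fit was tested on simulated data. Exon lengths and sequences came from GENCODE M21 on GRCm38. The Hox genes and gene lists were chosen with earlier results of these data known. Named genes were, per comparison and direction, the 4 called genes with the largest change and no overlap of ranges, the most 5′ gene above 50 per cluster, and up to 3 called genes per list. Other genes were named after their values were seen. Alternatives were DESeq2 1.42.0, its size factors, no filter, other thresholds, only the tissues compared, a replicate block, another gene length and each replicate left out. Non-coding genes of the clusters were not analysed here. Counting intervals cover counting error only. Some list genes and sequences are not reported here.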

Additional observations from a re-analysis of the deposited data

Results flagged for a closer look

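In 92 groups of 5 samples, 6 had a highest or lowest sample whose gap to the next, as a share of the group's range, exceeded Dixon's limit of 0.71, where chance gives about 1 in 20. In VM replicate 2, Hoxa2 had 176.3 normalized counts (next 123.8), Hoxa10 had 760.3 (next 541.3) and Hoxd8 had 1847, the lowest of its group (next 2214). In FP, Hoxb2 had 246.7 in replicate 2, the lowest (next 325.2), Hoxb3 had 272.3 in replicate 3 (next 230.9) and Hoxc5 had 209.8 in replicate 1 (next 168.4).

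Rows of the clusters that are not Hox genes also held signal above that of SM. Gm28230, which overlaps Hoxd3 and Hoxd4, had a mean of 230.8 normalized counts in VM against 1.69 in SM. Gm28308, which overlaps Hoxa2 to Hoxa6, had a mean of 12.2 in FP against 0.191, but its FP values were 32.2, 4.95, 0, 23.8 and 0, and the ranges overlapped. Evx2, the homeobox gene beyond Hoxd13, had 21.6 in E13.5 MM against 0.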

How the results depend on the processing

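Under all alternatives the counts of Hox genes called higher or lower stayed within 1.5 times those reported. In E13.5 MM against VM they ran from 8 to 10 higher and 7 to 8 lower, in E16.5 MM against E13.5 MM from 5 to 6 and 13 to 14, and in FP against E16.5 MM from 6 to 7 and 15 to 16. Against SM the higher genes ran from 22 to 24 in VM, 21 to 25 in E13.5 MM, 20 to 22 in E16.5 MM and 18 to 22 in FP. Of the values of named genes, 639 kept their direction and call, and 1, that of Hoxd3 in FP against E16.5 MM (-2.49), lost its call where the mean over both tissues had to exceed 50. In SM the number of Hox genes above 50 normalized counts was 0, against 3 with a mean above 10, and ran from 0 to 1 with a replicate left out, the 1 being Hoxa2 without replicate 2. Counts near 0 limit every fold against SM.

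Replicate numbers did not pair the samples. Correlations of same-numbered samples ran from -0.247 to 0.289, and at most 2 of 5 samples correlated best with their own number. With the number as a replicate block, the counts in E13.5 MM against VM were 9 higher and 7 lower, 5 and 14 in E16.5 MM against E13.5 MM, 6 and 16 in FP against E16.5 MM, and 24, 25, 22 and 21 higher against SM.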
